A study of Mus musculus with 16 samples.

Results

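Receptor tyrosine kinases are described here as they are transcribed in immortalised mouse embryonic fibroblasts (MEFs). The 47 genes were taken as a list of receptors and matched by symbol, and each was found in the expression table, which holds 54453 genes. The list does not cover every receptor tyrosine kinase of the mouse. Of the table's genes, 21872 were protein-coding, and 15285 of those had an average above 0 over the lines and entered the tests. This filter was passed by 43 of the 47 receptors, and Kit, Tie1, Epha5 and Ros1 remained below it.

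The data are total RNA-sequencing of 16 lines with 1 library each. Fibroblasts were established from sibling C57BL/6J embryos at E13.5, a mid-gestation stage, and the resulting parental lines, MEF-1 from a male and MEF-2 from a female embryo, were immortalised by serial passage through crisis. Single cells were sorted by flow cytometry and grown into clonal lines, 7 from MEF-1 and 7 from MEF-2. No treatment or targeted allele was part of these lines. Each set goes back to 1 embryo and 1 immortalisation, so that embryo, sex, immortalisation and karyotype cannot be told apart from the set, and a p-value between sets measures the spread between clones of the same parental line only.

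Receptor tyrosine kinases span the plasma membrane, bind a ligand outside the cell and phosphorylate tyrosines inside it after they are brought together in pairs. Adaptor proteins dock on these tyrosines and pass the signal to Ras and the MAP kinases, to PI3-kinase and to phospholipase C gamma. In fibroblasts, receptors for platelet-derived growth factor, fibroblast growth factor and epidermal growth factor are best known for driving division and migration in serum, collagen receptors read the matrix, and Eph receptors, the largest family, respond to ephrins on neighbouring cells. Ephb6, Ptk7, Ryk and Erbb3 are classed as pseudokinases or near-inactive kinases, which work together with active partners.

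The start sites of 5 receptors are shown first, because they stand at the ends of what follows. Epha7 and Ephb6 had the largest differences between the sets of clonal lines in either direction, Pdgfra was close to Ephb6 in size, and Epha5 and Ros1 were among the receptors with an average below 0. Each line below gives 300 bases of RefSeq promoter sequence on GRCm38.p6, from 250 bases before to 50 bases after the annotated start, 5′ to 3′ on the strand of the gene, and capitals mark each CpG, the dinucleotide at which mammalian DNA is methylated.
Epha7, chr4:28812881-28813180, plus strand: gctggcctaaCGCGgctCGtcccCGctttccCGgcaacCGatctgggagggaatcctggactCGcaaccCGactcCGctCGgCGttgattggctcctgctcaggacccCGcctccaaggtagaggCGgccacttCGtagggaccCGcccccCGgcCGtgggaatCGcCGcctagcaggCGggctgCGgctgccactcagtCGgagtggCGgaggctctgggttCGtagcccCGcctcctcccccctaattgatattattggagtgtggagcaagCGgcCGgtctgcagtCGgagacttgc
Ephb6, chr6:41605261-41605560, plus strand: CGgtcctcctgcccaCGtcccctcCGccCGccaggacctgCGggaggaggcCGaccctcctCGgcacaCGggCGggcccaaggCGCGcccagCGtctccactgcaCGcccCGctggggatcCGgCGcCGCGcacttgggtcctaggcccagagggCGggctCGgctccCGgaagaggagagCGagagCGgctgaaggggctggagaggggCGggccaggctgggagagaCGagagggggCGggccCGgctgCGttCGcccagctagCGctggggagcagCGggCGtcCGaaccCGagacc
Pdgfra, chr5:75152001-75152300, plus strand: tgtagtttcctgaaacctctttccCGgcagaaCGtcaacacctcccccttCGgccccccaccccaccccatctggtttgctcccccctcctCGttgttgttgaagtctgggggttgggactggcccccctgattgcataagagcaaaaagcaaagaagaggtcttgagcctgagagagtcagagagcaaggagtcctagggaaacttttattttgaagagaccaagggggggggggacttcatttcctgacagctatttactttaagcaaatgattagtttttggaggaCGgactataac
Epha5, chr5:84417333-84417632, minus strand: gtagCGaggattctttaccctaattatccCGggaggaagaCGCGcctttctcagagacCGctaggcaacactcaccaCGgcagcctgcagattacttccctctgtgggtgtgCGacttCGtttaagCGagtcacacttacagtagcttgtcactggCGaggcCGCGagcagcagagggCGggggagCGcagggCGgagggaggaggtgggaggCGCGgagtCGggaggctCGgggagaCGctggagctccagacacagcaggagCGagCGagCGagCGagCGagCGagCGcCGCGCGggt
Ros1, chr10:52195195-52195494, minus strand: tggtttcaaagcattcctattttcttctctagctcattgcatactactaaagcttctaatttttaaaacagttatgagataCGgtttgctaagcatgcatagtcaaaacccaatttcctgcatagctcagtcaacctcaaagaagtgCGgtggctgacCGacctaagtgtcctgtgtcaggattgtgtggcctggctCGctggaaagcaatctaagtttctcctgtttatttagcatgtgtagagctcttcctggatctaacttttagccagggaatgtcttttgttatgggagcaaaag
The windows of Epha7 and Ephb6 hold 28 and 34 CpGs. That of Pdgfra, a receptor transcribed at a high level in all lines, holds 5, while that of Epha5, which was below −1 in all lines, holds 30. The window of Ros1 holds 4.

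All values are “regularised log” (rlog) values, which are log2 of a normalised count with each line's deviation from the gene's average shrunken towards 0. Counts were not part of the table, so the reads behind a value are unknown. The lowest value of a line was −2.29 to −2.28 in all 16 lines, and a low value cannot be told from an absence of reads. Across genes, which are not independent replicates, the correlation of a line with another was 0.986 to 0.995 within MEF-1, 0.987 to 0.996 within MEF-2 and 0.958 to 0.978 between the sets. The lines carried fibroblast transcripts, with a median average of 18.05 over 10 markers, against 2.73 for 8 endothelial, 1.04 for 8 macrophage and mast cell, 2.89 for 8 Schwann cell and melanocyte, −0.01 for 8 epithelial and −0.51 for 8 muscle and neuron markers. Single markers of the other types reached averages of 11.14 (endothelial), 7.83 (macrophage and mast cell) and 6.63 (Schwann cell and melanocyte). The highest epithelial marker averaged 7.44 and the highest muscle or neuron marker 11.26. Other markers, among them Tyrobp, Fcer1a and Snap25, were listed at 0 in every clonal line. What a value of exactly 0 stands for is not given in the sources used here. The fibroblast label was not uniform, since Dcn, the matrix proteoglycan decorin, was at 9.63 to 12.24 in the MEF-1 clonal lines and at 5.77 to 7.24 in the MEF-2 clonal lines, and Thy1, a fibroblast surface antigen, was at 2.72 to 3.43 and 3.42 to 8.02.

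Levels of different receptors can be compared only per length, and for this log2 of the length of the longest protein-coding transcript in kb was taken from the average rlog value over 16 lines. On this scale, Fgfr2 and Fgfr1 were highest at 13.33 each, followed by Ryk, a Wnt receptor of the pseudokinase group, at 12.95. Their order depended on the length used. With the median transcript in place of the longest, the levels per kb were 14.24 for Fgfr2, 13.74 for Fgfr1 and 13.04 for Ryk, and Egfr, at 13.64, lay above Ryk. With the union of all exons they were 12.07, 12.36 and 12.28, and Ptk7, Ddr2, Pdgfrb and Axl, at 12.16 to 12.24, lay above Fgfr2. The annotated exons of Fgfr2 also overlap Ctbp2 on the same strand, so its level is uncertain. With the longest transcript, Ptk7 (12.58 per kb), Axl (12.40), Ddr2 (12.32), Pdgfrb (12.18) and Egfr (11.84) came next. At the other end stood Kit (−2.52), Erbb4 (−3.03), Tie1 (−4.18), Epha5 (−4.25) and Ros1 (−5.17), the receptors of mast cells and melanocytes, of heart and neurons, of endothelium, of neurons and of epithelia. In bulk samples, a low value cannot be told apart between fewer cells with the transcript and less of it per cell.

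**Figure D1:**
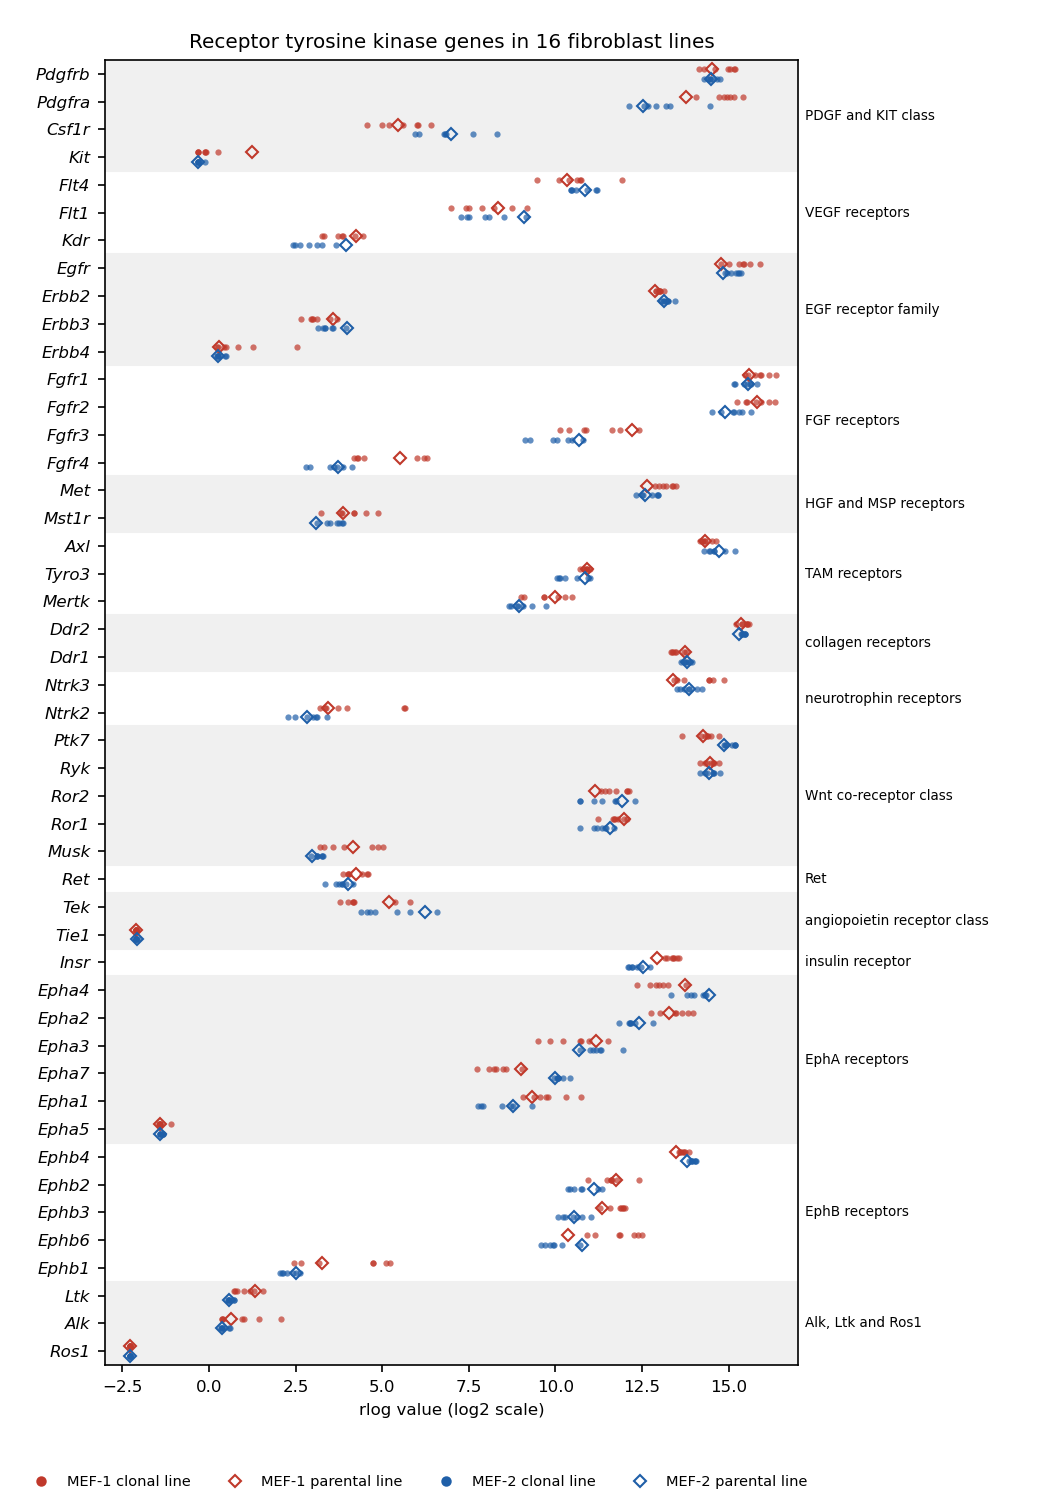
The rlog value of each receptor (rows, by class) in each of the 16 lines, with 1 point per clonal line (MEF-1 and MEF-2 in different colours) and separate marks for the parental lines. The averages run from 15.67 for Fgfr1 down to −2.28 for Ros1.

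The sets of clonal lines were compared to ask which receptors differ between fibroblasts grown from sibling embryos. In limma with Benjamini-Hochberg adjustment over all genes tested, 29 of the 43 receptors had an adjusted p under 0.05. Higher in MEF-1 were 21 receptors (48.8%), against 28.6% of all genes tested, and higher in MEF-2 were 8 (18.6%), against 27.5% of all genes. With a difference of at least 1 on the log2 scale as well, 10 receptors were higher in MEF-1 (23.3%, against 7.87% of all genes) and 2 in MEF-2 (4.65%, against 5.00%). The median difference, MEF-2 minus MEF-1, was −0.42 over the 43 receptors and −0.004 over all genes, and the median absolute difference was 0.55 and 0.30. Of 10 fibroblast markers, 3 were called higher in MEF-1 and 1 in MEF-2, against the same shares of all genes, with a list mean of 14.87 to 15.46 in MEF-1 clones against 14.13 to 15.03 in MEF-2 clones, and their part in these differences was not tested. Complete separation of the sets was rarer than a call. Every MEF-1 clonal line lay above every MEF-2 clonal line for Fgfr4, Insr, Ephb3 and Ephb6 (4 receptors, 9.30%, against 13.6% of all genes), and the reverse held for Ptk7, Epha7 and Ephb4 (3 receptors, 6.98%, against 12.3%).

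**Figure D2:**
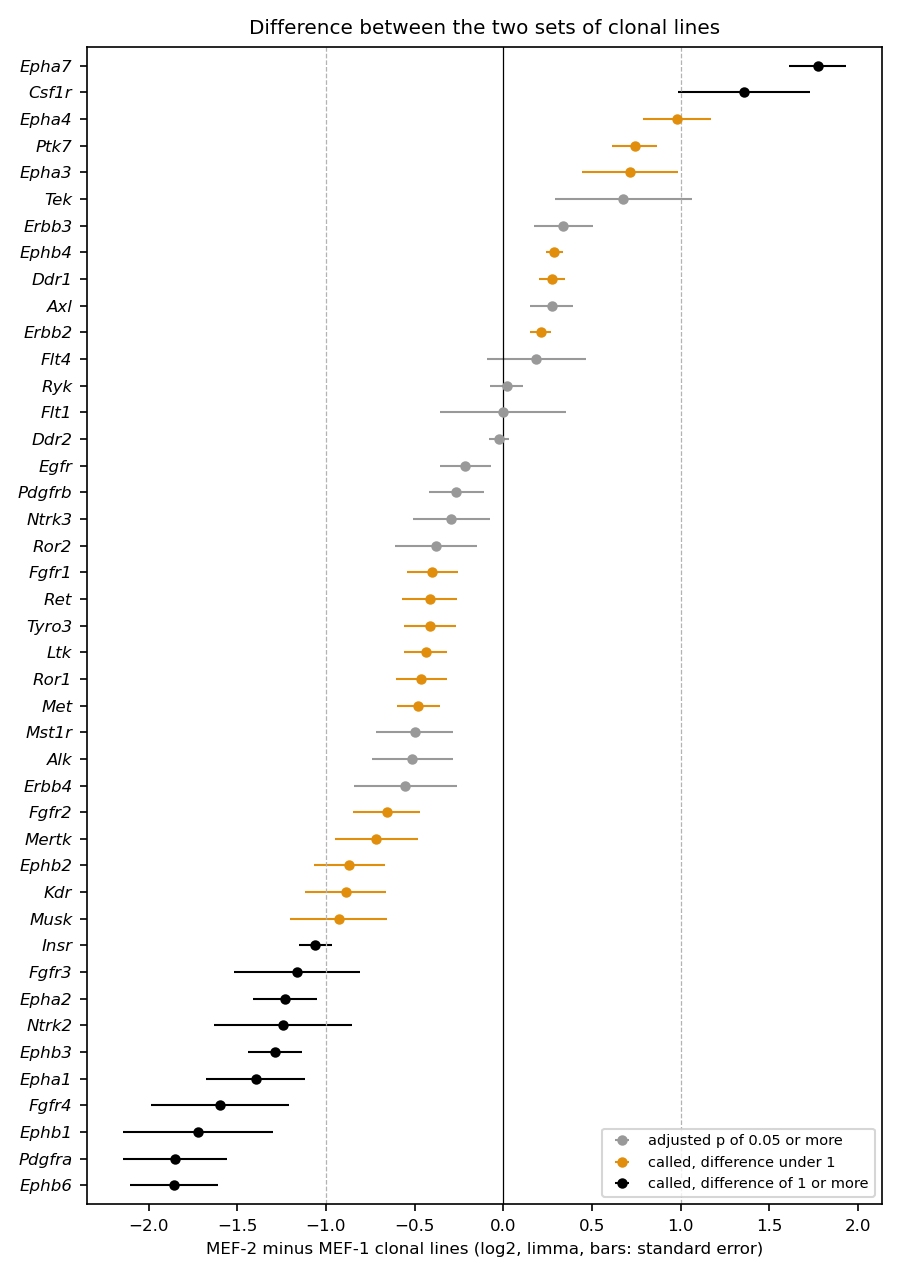
Difference between the 7 MEF-2 and the 7 MEF-1 clonal lines (MEF-2 minus MEF-1, rlog, log2 scale) for each receptor tested, ordered by size, with bars of 1 SE from limma and colours for the calls. The receptors run from Ephb6 at −1.86 to Epha7 at 1.77.

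Among receptors for platelet-derived growth factor and their relatives, Pdgfra, which receives most PDGF forms and marks mesenchyme, was higher in MEF-1. Its rlog values were 14.05 to 15.41 with a median of 14.94 in MEF-1 clones and 12.13 to 14.45 with a median of 12.89 in MEF-2 clones. The sets overlapped only through the lowest MEF-1 line, clone 6, and the highest MEF-2 line, clone 3. The difference was 1.85 (SE 0.29), or 3.61-fold on the rlog scale, with an adjusted p of 8.77e-05 in limma. The gene lies on chromosome 5 from 75152292 to 75198215, plus strand, next to Kit and Kdr. Kit, the receptor of stem cell factor, was above 0.3 in 1 line only, the MEF-1 parental line at 1.24, and at −0.32 to 0.25 in all other lines, so it did not enter the test.

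Pdgfrb, the PDGF-B receptor, and Csf1r, the macrophage colony-stimulating factor receptor, lie side by side on chromosome 18, from 61045150 to 61085061 and from 61100598 to 61132149, both on the plus strand. Csf1r was at 4.56 to 6.42 (median 5.61) in the MEF-1 clonal lines and at 5.93 to 8.33 (median 6.82) in the MEF-2 clonal lines. The sets overlapped in their edges, and MEF-2 was higher by 1.36 (SE 0.37, adjusted p = 0.00615 in limma), or 2.57-fold. Pdgfrb was at 14.16 to 15.19 (median 14.97) in MEF-1 and 14.28 to 14.74 (median 14.45) in MEF-2 and did not pass the test (higher in MEF-1 by 0.26, SE 0.16, adjusted p = 0.162).

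Both genes moved with the rest of their chromosome in the MEF-1 clones. In MEF-1 clones 1, 4 and 5, the median of all tested genes of chromosome 18 stood 0.45, 0.49 and 0.45 below the mean of the 14 clonal lines, while it was 0.06 to 0.14 above it in the other MEF-1 clones and 0.13 to 0.16 above it in all MEF-2 clones. Pdgfrb was at 14.60, 14.29 and 14.16 in clones 1, 4 and 5 and at 15.19, 15.15, 14.97 and 15.03 in clones 2, 3, 6 and 7. Csf1r was at 5.00, 5.20 and 4.56 in the former and at 6.42, 6.01, 5.61 and 6.04 in the latter. Clones 1, 4 and 5 were thus the lowest MEF-1 clonal lines for each of these receptors, without overlap with the other clones. The median of the MEF-1 parental line was 0.15 below, and there Pdgfrb was at 14.51 and Csf1r at 5.46. The list mean of 8 macrophage and mast cell markers was 2.18 to 2.49 in MEF-1 clones and 1.84 to 2.12 in MEF-2 clones. Of these markers, 4 passed the filter and 1 was called, higher in MEF-1 by 1 or more. The median difference of those that passed, MEF-2 minus MEF-1, was 0.23. Their relation to Csf1r was not tested. With each chromosome's median removed from each line, Pdgfrb passed the test, higher in MEF-1 by 0.55 (SE 0.09, adjusted p = 0.000125 in limma), and Csf1r remained called (adjusted p = 0.0123). Exons of Csf1r overlap Hmgxb3 on the opposite strand.

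**Figure D3:**
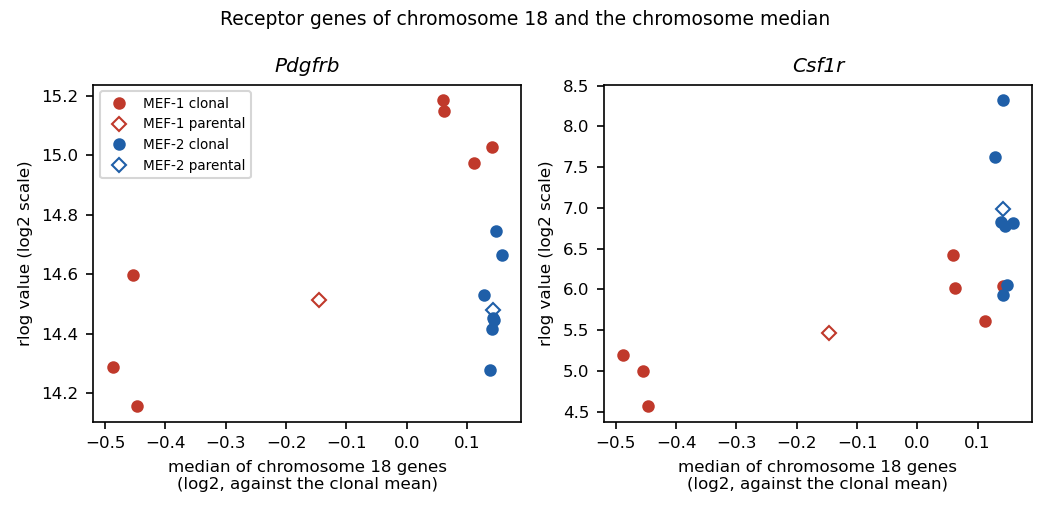
Pdgfrb and Csf1r (rlog, vertical axes) against the median of chromosome 18 in the same line (log2, horizontal axes, relative to the mean of the 14 clonal lines), 1 point per line. MEF-1 clones 1, 4 and 5 lie apart on the left with the lowest values of their set.

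Receptors of vascular endothelial growth factor and of angiopoietins are known from endothelium, yet Flt4, the receptor of VEGF-C and VEGF-D, averaged 10.65 and Flt1, the VEGF-A receptor that acts as a decoy, averaged 8.08. The averages of 8 endothelial markers in the same lines ran from 0.18 to 11.14 with a median of 2.73. Cdh5 and Emcn, at 0.43 and 0.18, were at the low end. The list mean of the 8 endothelial markers was 3.75 to 4.17 in MEF-1 clones and 3.70 to 4.05 in MEF-2 clones. Flt1 was at 6.98 to 9.18 (median 7.87) in MEF-1 and at 7.27 to 9.15 (median 7.96) in MEF-2, with a difference of 0.00 (SE 0.35). Flt4 was at 9.47 to 11.92 (median 10.62) and 10.44 to 11.21 (median 10.59), and it did not pass the test either. Clone 7 was the highest line for Flt1 and Flt4 in both sets, although the number is no link between the sets. Kdr, the main signalling receptor of VEGF-A, was low and was called, higher in MEF-1 by 0.89 (SE 0.23, adjusted p = 0.00386 in limma). Tek, the angiopoietin receptor, was at 3.78 to 5.81 (median 4.15) in MEF-1 and 4.39 to 6.57 (median 4.79) in MEF-2 without a call, and its relative Tie1 was at −2.11 to −2.06 in all 16 lines.

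In the family of the EGF receptor, Egfr itself averaged 15.19 and Erbb2, the partner without a ligand of its own, 13.09. Erbb2 was called at a small size, higher in MEF-2 by 0.21 (SE 0.06, adjusted p = 0.00672 in limma). Egfr was higher in MEF-1 by 0.21 (SE 0.14), which was not called. Erbb3, the neuregulin receptor with little kinase activity of its own, averaged 3.36, and Erbb4, another neuregulin receptor, averaged 0.56. Neither was called. Erbb4 had a tail in MEF-1, at 0.23 to 2.55 (median 0.51) against 0.23 to 0.51 (median 0.26) in MEF-2, with clone 7 at 2.55 and clone 3 at 1.28 as the lines that stood out.

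All 4 receptors of fibroblast growth factors were called higher in MEF-1, against 28.6% of all genes tested. Exons of Fgfr2 overlap Ctbp2 on the same strand, so its difference between the sets is as uncertain as its level. Fgfr1, the isoform typical of mesenchyme, was at 15.48 to 16.37 (median 15.90) in MEF-1 and 15.14 to 15.82 (median 15.52) in MEF-2, and Fgfr2, which is shared by epithelium and bone precursors, was at 15.23 to 16.33 (median 15.77) and 14.53 to 15.64 (median 15.15). The sets overlapped widely for both. Their differences were 0.40 (SE 0.14, adjusted p = 0.0256 in limma) and 0.66 (SE 0.19, adjusted p = 0.00788), and the call of Fgfr1 was lost when any of MEF-1 clones 1 and 3 or MEF-2 clones 2 and 7 was left out (adjusted p up to 0.0557). The difference of Fgfr1 was lowest without MEF-1 clone 1, at 0.32.

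Fgfr3, a brake on cartilage growth, had values of 10.13 to 12.41 (median 10.87) in MEF-1 and 9.11 to 10.80 (median 10.06) in MEF-2. It was higher in MEF-1 by 1.16 (SE 0.36, adjusted p = 0.0118). Fgfr4, the receptor of FGF19-type hormones in liver and of FGFs in muscle precursors, was low, at 4.18 to 6.30 (median 4.48) in MEF-1 and 2.81 to 4.13 (median 3.62) in MEF-2. No line of a set reached into the other, and MEF-1 was higher by 1.60 (SE 0.39, adjusted p = 0.00277). Within MEF-1, Fgfr4 fell into clones 1, 4 and 5 at 6.22, 6.30 and 6.00 and clones 2, 3, 6 and 7 at 4.48, 4.28, 4.18 and 4.29. Clones 1, 4 and 5 are those with a lower chromosome 18, while Fgfr4 lies on chromosome 13 (55152640 to 55168759, plus strand), whose median was −0.11 to 0.08 in all MEF-1 clones. Whether these patterns are linked was not tested. Fgfr3 lies on chromosome 5 (33721674 to 33737068, plus strand), and its exons overlap an annotated transcript on the opposite strand.

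Insr, the insulin receptor, gave the lowest adjusted p of all receptors. It was at 13.17 to 13.57 (median 13.39) in the MEF-1 clonal lines, at 12.10 to 12.74 (median 12.21) in the MEF-2 clonal lines, and the sets lay apart. The difference was 1.06 (SE 0.09, adjusted p = 3.02e-07 in limma), or 2.09-fold, with the MEF-1 parental line between the sets at 12.95 and the MEF-2 parental line within the range of its clones at 12.52. Insr lies on chromosome 8 (3122061 to 3279617, minus strand).

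Met, the hepatocyte growth factor receptor and a driver of cell scattering, was called higher in MEF-1 by 0.48 (SE 0.12), whereas its relative Mst1r was low (average 3.80) and not called. Of the TAM receptors, which bind Gas6 and protein S on dying cells, Axl was highest (average 14.49) and was not called, while Tyro3 and Mertk were called higher in MEF-1 by 0.42 (SE 0.15) and 0.72 (SE 0.23). The call of Tyro3 was lost without MEF-2 clone 1, 3 or 6 (adjusted p up to 0.0552). The collagen receptor Ddr2, which binds fibrillar collagen and is a hallmark of fibroblasts, varied little, at 15.21 to 15.57 in MEF-1 and 15.36 to 15.47 in MEF-2, with a difference of 0.02 (SE 0.06). Ddr1, the collagen receptor of epithelia, was higher in MEF-2 by 0.28 (SE 0.07).

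Ntrk3, the receptor of neurotrophin 3, was transcribed at a high level (average 13.94) and was not called. Ntrk2, the receptor of brain-derived neurotrophic factor (chromosome 13, 58806569 to 59133970, plus strand), was low and uneven. It was at 3.20 to 5.65 (median 3.73) in MEF-1 and at 2.28 to 3.41 (median 3.00) in MEF-2. MEF-1 clones 1 and 7, at 5.62 and 5.65, stood above the other clones, all of which were at or below 3.97. The difference was 1.24 (SE 0.39, adjusted p = 0.0141 in limma), and it was 0.99 at its smallest among the fits without 1 line (adjusted p up to 0.031). Ret, the GDNF family receptor of neural crest and kidney, averaged 4.02, and its call at a difference of 0.42 was lost in 6 of the 14 fits that left out a line, and also without a filter, with a stricter filter and with chromosome medians removed (adjusted p up to 0.0682).

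Receptors listed here as the Wnt co-receptor class, with Musk placed among them, moved in both directions. Ptk7, a pseudokinase of planar cell polarity, was at 13.65 to 14.72 (median 14.38) in MEF-1 and 14.86 to 15.19 (median 15.10) in MEF-2, without overlap, and was higher in MEF-2 by 0.74 (SE 0.13, adjusted p = 0.000195 in limma). Ryk ran from 14.16 to 14.72 (median 14.48) and from 14.18 to 14.75 (median 14.55), with a difference of 0.02 (SE 0.09). Ror1, a Wnt5a receptor, was called higher in MEF-1 by 0.46 (SE 0.14), and Ror2, another Wnt5a receptor, was higher by 0.38 (SE 0.23) and not called. Musk, which clusters acetylcholine receptors in muscle, was low and called higher in MEF-1 by 0.93 (SE 0.27).

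Eph receptors held 6 of the 12 calls at the size limit of 1. All 10 tested members were called, 6 higher in MEF-1 and 4 in MEF-2, against the 28.6% and 27.5% of all genes given above. In the EphA group, which prefers ephrin-A ligands anchored in the membrane by a lipid, Epha7 was higher in MEF-2. It was at 7.72 to 9.05 (median 8.29) in the MEF-1 clonal lines and at 9.95 to 10.41 (median 10.08) in the MEF-2 clonal lines. The gap between the sets was wider than the whole MEF-2 range, and the parental lines, at 9.01 and 9.99, fell on the side of their own clones. The difference was 1.77 (SE 0.16, adjusted p = 3.39e-07 in limma), or 3.42-fold. The gene lies on chromosome 4 (28813131 to 28967499, plus strand).

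Epha1 and Epha2, both known from epithelia, went the other way. Epha1 was at 9.07 to 10.75 (median 9.72) in MEF-1 and 7.76 to 9.33 (median 8.45) in MEF-2, with a difference of 1.40 (SE 0.28, adjusted p = 0.000704). Epha2 was at 12.75 to 13.96 (median 13.49) and 11.83 to 12.81 (median 12.14), with a difference of 1.23 (SE 0.18, adjusted p = 4.34e-05). In both genes 1 or more lines of a set reached into the range of the other. Epha1 lies on chromosome 6 (42358487 to 42373268, minus strand), where its exons overlap Zyx on the opposite strand, and Epha2 on chromosome 4 (141301240 to 141329384, plus strand).

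Epha4, which binds ephrins of either group, was just under the size limit, higher in MEF-2 by 0.98 (SE 0.19, adjusted p = 0.000595). Epha3, at 9.50 to 11.50 (median 10.70) in MEF-1 and 10.70 to 11.95 (median 11.16) in MEF-2, was called at 0.71 (SE 0.27, adjusted p = 0.0358), and this call was lost in 7 of the 14 fits that left out a clonal line and when the parental lines were added (adjusted p = 0.0715). Epha5 stayed at −1.43 to −1.09 in all 16 lines.

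In the EphB group, whose ephrin-B ligands span the membrane, 4 of 5 receptors were called higher in MEF-1, against 28.6% of all genes tested. Ephb6, the pseudokinase of the group, was at 10.92 to 12.50 (median 11.85) in MEF-1 clones and at 9.57 to 10.70 (median 9.94) in MEF-2 clones. No line crossed over, and the difference of 1.86 (SE 0.25, adjusted p = 1.68e-05 in limma) was the largest in size of all receptors, at 3.62-fold. Ephb3 was at 11.28 to 12.01 (median 11.89) and 10.07 to 11.03 (median 10.51), again without overlap, with a difference of 1.29 (SE 0.15, adjusted p = 5.19e-06). Ephb6 lies on chromosome 6 (41605482 to 41620509, plus strand) and Ephb3 on chromosome 16 (21204755 to 21223305, plus strand).

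Ephb1 was low, at 2.46 to 5.23 (median 4.74) in MEF-1 and 2.04 to 2.62 (median 2.24) in MEF-2. MEF-1 clones 1, 2, 4 and 5 lay at 4.74 to 5.23 and clones 3, 6 and 7 at 2.46 to 3.19, of which clone 3 reached into the MEF-2 range. The difference was 1.72 (SE 0.42, adjusted p = 0.00307), on chromosome 9 (101922128 to 102354693, minus strand). Ephb2 was called higher in MEF-1 by 0.87 (SE 0.20). Ephb4, the venous ephrin-B2 receptor, was called higher in MEF-2 by only 0.29 (SE 0.05, adjusted p = 0.000176), and its SDs within MEF-1 and MEF-2, 0.10 and 0.07, were the smallest of the Eph receptors tested.

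Alk, Ltk and Ros1, which are best known as fusion partners in tumours, had low values. Alk ran from 0.36 to 2.08 over the clonal lines, with the highest value in MEF-1 clone 4, and was not called. Ltk was called higher in MEF-1 by 0.44 (SE 0.12, adjusted p = 0.00677), with 0.73 to 1.56 in MEF-1 and 0.56 to 0.74 in MEF-2. Ros1 was at −2.28 to −2.26 in all lines.

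The exact permutation test over the 14 clonal lines, two-sided, gave p-values of at most 0.0117 for the 12 receptors called with a difference of 1 or more. It gave 0.000583, the smallest possible for 7 against 7, for Insr, Epha7, Ephb3, Ephb6 and Fgfr4, whose sets did not overlap. The 12 receptors were selected on the same values, so this test adds no separate evidence. All 12 kept an adjusted p under 0.05 in every fit without 1 clonal line (highest 0.031), while the difference of Fgfr3 fell to as little as 0.95 and that of Ntrk2 to 0.99. The exons of Pdgfra, Csf1r, Fgfr3, Epha1 and Ephb1 among them overlap another annotated gene on the opposite strand. The library kit keeps the strand, but the strand setting of the quantification is not given in the sources used here.

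Clones of 1 parental line also differed among themselves. A range of 2 or more on the log2 scale was seen among the MEF-1 clonal lines for 9 receptors (20.9%, against 5.69% of all genes tested) and among the MEF-2 clonal lines for 3 (6.98%, against 4.70%). In MEF-1 these were Ephb1 (2.77), Flt4 (2.45), Ntrk2 (2.45), Erbb4 (2.32), Fgfr3 (2.28), Flt1 (2.20), Fgfr4 (2.12), Tek (2.03) and Epha3 (2.00), with Csf1r (1.85) just outside. The count fell to 5 without clone 7, which was the highest line for Flt1, Flt4, Erbb4, Ntrk2 and Tek, and to 6 without clone 4. In MEF-2 they were Csf1r (2.39), Pdgfra (2.32) and Tek (2.18). The median SD over receptors was 0.43 in MEF-1 and 0.30 in MEF-2, against 0.20 and 0.16 over all genes. The larger SD was in MEF-1 for 29 of 43 receptors (67.4%), as it was for 63.4% of all genes.

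Some receptors shared the MEF-1 clones that stood high, and others did not. Clones 1, 4 and 5 lay above the other MEF-1 clones for Fgfr4, Fgfr2 (with the overlap with Ctbp2 given above), Ret, Musk and Ror1. The same held by narrow margins for Mst1r, Epha3 and Ephb1. They were the lowest MEF-1 clones for Pdgfrb, Csf1r and Ptk7. Clones 1, 4 and 5 are those with a lower chromosome 18, and a link was not tested. The share of all genes tested that divide the clones in this way was not computed. The pattern can therefore not be called particular to receptors. Ephb1 was high in clone 2 as well, Ntrk2 in clones 1 and 7, and Tek in clones 2 and 7. MEF-1 clone 7 had the highest value of its set for 14 of the 43 receptors, and MEF-2 clones 7 and 3 for 13 and 12. How often these clones were highest over all genes was not computed. Clone 7 of MEF-1 also had a median of 0.24 for chromosome 5, against −0.03 to 0.02 in the other MEF-1 clones. Flt1, Kdr, Pdgfra and Ephb4, which lie on chromosome 5, had their highest MEF-1 value in clone 7, while Fgfr3, on the same chromosome, did not. With chromosome medians removed, 8 receptors had a range of 2 or more in MEF-1.

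Parental lines were compared with their clones to ask whether growth from a single cell went along with a change of receptors. None of the 43 receptors had an adjusted p under 0.05 in limma (0.203% of all genes did), and 4 had an unadjusted p under 0.05, namely Kdr, Egfr, Epha4 and Ephb4, against 18.1% of all genes. The lowest adjusted p was 0.192 for Ephb4. This fit assumes that parental lines, with 1 library each, vary like the clones. Ephb4 was the only receptor with both parental lines outside their clones on the same side. At 13.48 and 13.80 they lay below all clonal lines of their set (1 receptor, 2.33%, against 6.73% of all genes). No receptor had both parental lines above all their clones, against 4.85% of all genes.

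The larger moves were not called. Flt1, Kdr, Tek and Fgfr3 were higher in the parental line of both sets than in the mean of its clones, by 0.35 and 1.10 for Flt1, 0.42 and 1.03 for Kdr, 0.69 and 1.06 for Tek and 1.04 and 0.68 for Fgfr3, in the order MEF-1 and MEF-2. Pdgfra lay the other way, with the parental line at 13.78 in MEF-1 and 12.54 in MEF-2, 1.10 and 0.49 below the means of their clones. The adjusted p-values of these 5 ranged from 0.251 to 0.446 in limma. Angpt1, the ligand of Tek, was at 9.88 and 9.64 in the parental lines and at 11.35 to 13.83 and 9.74 to 12.36 in their clones. Angpt1 was not called between parental and clonal lines either (adjusted p = 0.135 in limma).

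In the order MEF-1 and MEF-2, the parental lines were at 12.20 and 10.68 for Fgfr3, 5.51 and 3.71 for Fgfr4, 15.57 and 15.55 for Fgfr1 and 15.82 and 14.90 for Fgfr2. They were at 8.34 and 9.08 for Flt1, 10.35 and 10.85 for Flt4, 5.19 and 6.24 for Tek and 0.29 and 0.25 for Erbb4. Among Eph receptors, Epha1 was at 9.31 and 8.78, Epha2 at 13.29 and 12.40, Epha3 at 11.16 and 10.69, Ephb1 at 3.25 and 2.51 and Ephb3 at 11.35 and 10.55. The MEF-1 parental line was thus the higher for the receptors called higher in MEF-1 clones by 1 or more, as it was for Ntrk2 (3.42 and 2.84), Pdgfra and Insr, with Ephb6 as the exception, and the MEF-2 parental line was the higher for Epha7 and for Csf1r (5.46 and 6.98).

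**Figure D4:**
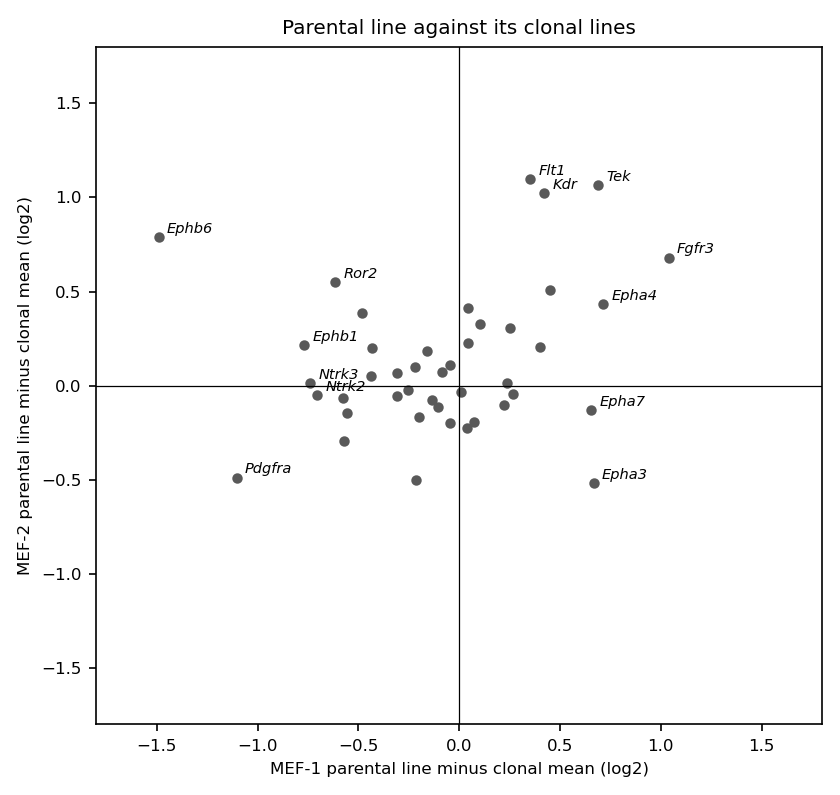
Parental line minus the mean of its 7 clonal lines (rlog, log2 scale) in MEF-1 (horizontal axis) and MEF-2 (vertical axis), 1 point per receptor tested. Ephb6 lies apart, at −1.49 in MEF-1 and 0.79 in MEF-2, and Tek, Fgfr3, Flt1 and Kdr lie in the corner where both parental lines are higher.

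Whether the step from parental to clonal lines differed between the sets was tested with an interaction term. No receptor was called (0.275% of all genes were), and Ephb6 and Insr had an unadjusted p under 0.05, against 6.77% of all genes. For Ephb6, the parental lines were at 10.35 in MEF-1 and 10.78 in MEF-2, so the MEF-1 parental line was below all of its clones and the MEF-2 parental line above all of its own. The interaction was 2.28 (SE 0.69), with an unadjusted p of 0.00512 and an adjusted p of 0.378. Between the parental lines, each with 1 library, MEF-2 was thus the higher, the reverse of the clonal lines. For Insr the interaction was 0.63 (SE 0.27, adjusted p = 0.669), and its parental lines kept the order of the clones.

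The other genes of the pathway were taken as 5 lists of ligands, co-receptors, adaptors with the Ras-MAPK core, inhibitors and target genes, written from general knowledge, with 154 genes in all. Of these, 147 passed the filter and 85 were called. A difference of 1 or more was found for 35, of which 24 were higher in MEF-1 and 11 higher in MEF-2. The shares of all genes given above apply to these counts as well.

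Of 61 ligands, 55 passed, 24 were called higher in MEF-1 and 12 in MEF-2, with 14 and 7 at the size limit of 1. The largest differences among ligands higher in MEF-1 were those of Igf2, the imprinted insulin-like growth factor that also binds the insulin receptor, of Tgfa, a ligand of Egfr, and of Fgf5. Igf2 was at 11.44 to 15.59 in the MEF-1 clonal lines and at 7.64 to 8.59 in the MEF-2 clonal lines, with parental lines at 13.93 and 7.87. This is a difference, MEF-2 minus MEF-1, of −5.29 (SE 0.45, adjusted p = 2.03e-07 in limma). Tgfa and Fgf5 differed by −3.14 (SE 0.27) and −2.23 (SE 0.36). Higher in MEF-2 were Pgf, a ligand of Flt1, by 2.53 (SE 0.22), Alkal1, a ligand of Alk and Ltk, by 2.05 (SE 0.43), and Ntf5, a ligand of Ntrk2, by 1.57 (SE 0.21).

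Ligands and receptors of the same pair did not always lie on the same side. The Flt1 ligand Pgf was at 3.71 to 4.64 in MEF-1 and 6.26 to 7.33 in MEF-2 while Flt1 itself differed by 0.00, and Tgfa was at 5.73 to 8.05 in MEF-1 and 3.31 to 3.77 in MEF-2 while Egfr was not called. Pdgfa, which acts through Pdgfra, was lower in MEF-2 clones like its receptor, at 8.96 to 9.59 against 10.12 to 10.60 in MEF-1 clones. Between the parental lines, with 1 library each, Pdgfa was nearly level, at 10.12 in MEF-1 and 10.10 in MEF-2. Gas6, the TAM ligand, was at 12.00 to 13.01 in MEF-2 and 13.75 to 15.71 in MEF-1, where Tyro3 and Mertk were also higher. Axl, the TAM receptor with the highest average, lay the other way, higher in MEF-2 by 0.27 (SE 0.12) without a call.

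Of 12 co-receptors, 11 passed, with 4 called higher in MEF-1 and 1 in MEF-2, all of them by 1 or more. Gfra2 and Gfra4, which present GDNF family ligands to Ret, differed by −3.61 (SE 0.36) and −3.38 (SE 0.30), Sorl1, a sorting receptor, by −1.92 (SE 0.37), and Lrp4, the agrin receptor that works with Musk, by 1.41 (SE 0.16). For adaptors and the Ras-MAPK core, the shares of all genes are 28.6% and 27.5% called, and 7.87% and 5.00% by 1 or more. All 40 passed, 15 were called higher in MEF-1 and 10 in MEF-2, with 3 and 1 by 1 or more. These were the adaptor Shc3 (−2.65, SE 0.22), the phospholipase Plcg2 (−2.07, SE 0.19), the PI3-kinase subunit Pik3r1 (−1.15, SE 0.14) and the adaptor Gab2 (1.14, SE 0.18).

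Inhibitors had 10 of 28 members called higher in MEF-1 and 8 in MEF-2, with 3 and 2 by 1 or more. The phosphatases Ptprj (−1.34, SE 0.17) and Dusp4 (−1.25, SE 0.20) and the MAPK feedback inhibitor Spry2 (−1.23, SE 0.20) were lower in MEF-2, and Spry3 (1.43, SE 0.17) and Lrig1, a membrane protein that marks Egfr for breakdown (1.35, SE 0.22), were higher. Of 16 target genes of Ras-MAPK signalling, 2 were called, both higher in MEF-1 and only Spry2, which is on both lists, by 1 or more. The list mean of the target genes was 10.55 to 11.58 over MEF-1 clones and 10.47 to 11.20 over MEF-2 clones, with overlap.

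The promoters shown at the start can be set against those of the other receptors. RefSeq windows were at hand for 40 of the 47. Among receptors with an average rlog value above 7, the median window held 19.5 CpGs (26 receptors, 2 to 42), and among those at or below 7 it held 18 (14 receptors, 3 to 30). Over all protein-coding genes with a window, the median was 22 for 8989 genes above 7 and 4 for 7481 genes at or below it. The median of low receptors was therefore nearer to that of genes above 7 than to that of low genes in general. Kit, Alk and Epha5 are examples of low receptors with 20, 28 and 30 CpGs. Tek, Ros1, Tie1, Mst1r and Musk are low receptors with 3, 4, 7, 8 and 8. Ephb1, also low, held 14, the median of all windows. No window was at hand for the low receptors Csf1r, Erbb3 and Ret. Ddr2, Fgfr2 and Pdgfra are high receptors with 2, 4 and 5. The dividing value of 7 was chosen after the values had been seen, and no test was run. The GC box, searched as GGGCGG on both strands, was present in 70.0% of the receptor windows against 48.1% of all windows. The motif TATAAA, also on both strands, was present in 7.5% against 12.9%. Above the dividing value of 7, the GC box was in 76.9% of receptor windows against 67.9%, and TATAAA in 11.5% against 6.23%. At or below it, the shares were 57.1% against 24.3% and 0.0% against 20.8%. No DNA methylation was analysed here.

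**Figure D5:**
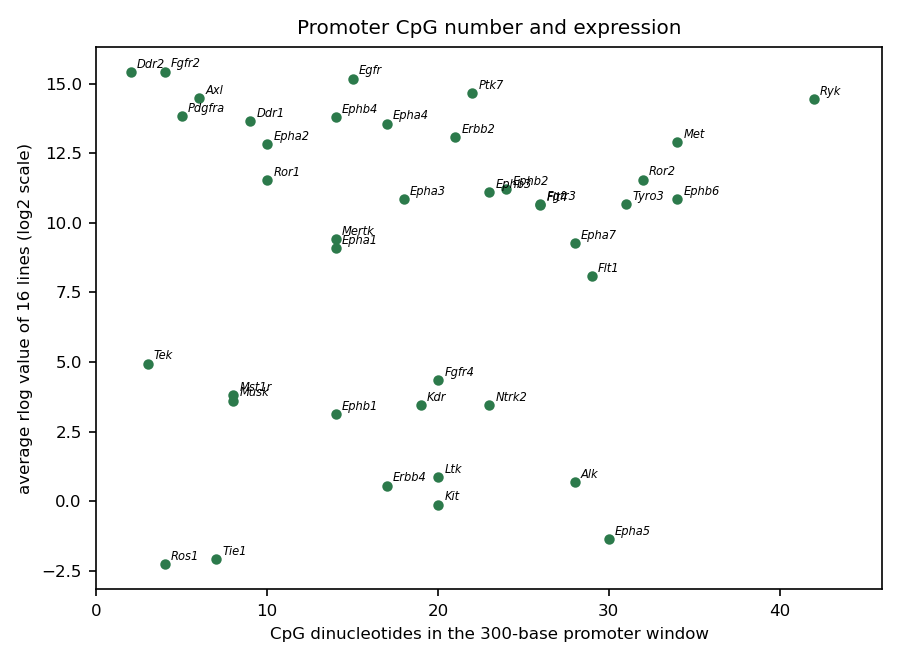
CpGs per 300-base promoter window (horizontal axis) against the average rlog value over 16 lines (vertical axis) for the 40 receptors with a window, with the name of each receptor. Some receptors with low values, such as Epha5 with 30 CpGs and Alk with 28, stand among the CpG-rich windows. Others, such as Tek with 3 and Ros1 with 4, stand among the CpG-poor windows.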

How the data were processed

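The 16 libraries, 1 for each parental and clonal line, are total RNA. According to the methods, the authors processed reads with Trim Galore (0.6.0), quantified them with Salmon (1.5.2) on mm10 and deposited log2 values from the regularised log (rlog) transformation of DESeq2 (1.24.0). How transcripts were summed to genes is not given in the sources used here. Such values hold no counts and understate differences of low genes. The depth of each line is unknown.

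Ensembl identifiers were looked up in GENCODE mouse release 21 (Ensembl release 96, GRCm38), while the authors used Ensembl release 102. In the table, 54200 of 54453 genes were found. Protein-coding genes with an average above 0 entered limma (3.58.1, R 4.3.3) with a trended variance prior. Separate fits were made on the 14 clonal lines (MEF-1 against MEF-2), on all 16 lines (set plus parental or clonal) and on the 4 groups (interaction). A gene was called at a Benjamini-Hochberg adjusted p under 0.05 over all genes tested. A difference of 1 and a range of 2, both on the log2 scale, served as size limits. Exact permutation tests over the 14 clonal lines were two-sided. The fits were tested on simulated data.

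The receptors, the pathway and marker lists and the limits were chosen with earlier results of these data known. Full values are given for receptors called with a difference of 1 or more, receptors with a range of 2 or more and the 3 with the highest level per kb. Of the pathway lists, at most the 3 largest differences in each direction at the size limit are named, and other pathway genes named beside their receptor (Pdgfa, Gas6, Angpt1) were chosen after their values had been seen. Alternatives covered the filter, the variance prior, centring, chromosome medians, the parental lines, the clone number as a block and each line left out. Promoter windows are from RefSeq on GRCm38.p6, with the first window used for 5 receptors that had several. Protein sequences were not used here.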

Additional observations from a re-analysis of the deposited data

Results flagged for a closer look

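The clonal lines of MEF-1 lay above their parental line for Ephb6, and those of MEF-2 lay below theirs. The mean of the clonal lines minus the parental line was 1.491 in MEF-1, where 7 of 7 clones lay above the parental line, and −0.7901 in MEF-2, where 0 of 7 did. The interaction term for this difference had an adjusted p of 0.378 in limma (unadjusted p = 0.00512), so it did not pass the correction over all genes, and each parental line has 1 library.

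Single lines far from the rest of their set were looked for in 86 sets of 7 values, 1 for each receptor tested in MEF-1 and MEF-2. None was found, where chance would give about 4.3.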

How the results depend on the processing

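No direction of a receptor with a call was reversed under any alternative run. The number of receptors called between the sets was 29. It was 28 without a filter and 23 with averages above the 40th percentile (fewer low receptors tested). With that stricter filter, 15 were higher in MEF-1, against 21 in the main fit, and 8 in MEF-2, as in the main fit. At the size limit of 1, these were 8, against 10, and 2, as in the main fit. The number called was 29 without a trend in the variance prior, with autosomal centring or with chromosome medians removed. It was 30 with parental lines added. Leaving out each clonal line gave 26 to 34 receptors, 11 to 14 with a difference of 1 or more (main 12) and 80 to 88 pathway genes (main 85), and 0 receptors stayed the count between parental and clonal lines. Receptors with a range of 2 or more in MEF-1 numbered 5 to 9 with a line left out (5 without clone 7), and 2 to 3 in MEF-2. Among values of single receptors, 857 kept direction and side of the threshold, 15 gained and 24 lost a call, and 5 levels per kb moved with the length used. Beside Pdgfrb, calls gained in single settings concerned Egfr, Erbb3, Mst1r, Axl, Ror2, Tek and Alk, and calls lost concerned Fgfr1, Tyro3, Ret and Epha3. The cause was not tested.

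Clones that share a number were not sorted from the same line, and their deviations from the set means correlated at −0.13 to 0.20, so the numbers do not pair the samples. With the clone number as a replicate block, 30 receptors were called, 12 with a difference of 1 or more, and 90 pathway genes. Axl was called in this fit only among those on all 14 clonal lines (difference 0.27).

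Without counts, a receptor with a low value cannot be separated from one without reads.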
